A study of Mus musculus with 36 samples.

Results

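The loci described here are 852 stretches of the mouse genome. They were compared between 1 sham and 1 infarct border zone library per day, from nuclei isolated as those of cardiomyocytes. On days 7 and 14 after surgery, the border zone had fewer tags there for each sham tag than at the median locus. On day 4 the loci were closer to balance, though mostly still on the sham side. They were chosen by their measured values. Regions of the 9 deposited lists were merged into 1 locus wherever they shared 1 bp or more, and for each day the border zone tags of a locus were divided by its sham tags. R is this ratio divided by the median ratio of all loci of that day, so that an R of 1 marks a locus at the typical balance of its day. A locus was a member when it was listed on days 4, 7 and 14, its R was at most 0.6 on days 7 and 14, and its R lay between 0.77 and 1.3 on day 4. This held for 852 of the 19733 loci listed on all 3 days (4.32%), out of 60847 loci in all.

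Accessibility was measured by ATAC-seq in nuclei of the left ventricle of FVB/N mice, with 1 sham and 1 border zone library per day. For day 4, the mice were Cdh5-Cre; Sun1-sfGFP/- on an FVB/N background, with either a sham operation or a myocardial infarction, no tamoxifen is named, and the nuclei were enriched by a pulldown of PCM1, a protein at the envelope of cardiomyocyte nuclei. Cdh5 drives Cre in endothelial cells, so that Cre does not mark cardiomyocytes. The protocol text of day 4 also names a GFP sort, while the sample type is given as PCM1-sorted. For days 7 and 14, the mice were Myh6-MerCreMer;nTnG, also on FVB/N, in which the promoter of a cardiomyocyte myosin gene drives a Cre recombinase that tamoxifen switches on. The protocol names a Sun1/sfGFP line beside these alleles. Sham and infarct groups both received tamoxifen at 20 mg/kg in the week before surgery, and 50000 GFP-positive nuclei per sample were sorted. The labels used here state neither the animals' age nor how many animals a library pooled. The cell type was not checked against marker genes, because no mm9 annotation was used. The listed regions carried from 2743095 to 13936013 whole tags per library, and the members held 3.46 to 3.75% of them on day 4, 1.32 to 2.95% on day 7 and 1.6 to 3.02% on day 14.

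As background, the transposase of ATAC-seq cuts DNA where nucleosomes leave it free, and such places are promoters, enhancers and the bodies of strongly transcribed genes. The border zone is the surviving muscle beside an infarct, in which cardiomyocytes take up a stress programme and lose part of their adult pattern of gene expression. A lower R means that the border zone had fewer cuts for each sham cut at a locus than the median locus of that day had. In such bulk libraries, a smaller share of cells with an open site and less opening per cell cannot be told apart.

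Day 4 differs from the later days in the mouse line, in the way nuclei were obtained and in the aligner, so the step from day 4 to day 7 cannot be told apart from these differences. With 1 library per condition and day, and with the ratio of every day used by the rule, no test was run. The interval given with an R comes from the exact (Clopper-Pearson) 95% interval of the border zone share of a locus's whole tags. Tags carry no molecular identifiers, so it covers counting error only.

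On day 4 the members had slightly fewer tags in the border zone than in sham, and on both later days far fewer. On day 4 the members together had 221495 sham tags and 189233 whole border zone tags. On day 7 they had 113887 sham tags against 36254, and on day 14 they had 420872 against 165149. The listed tags of the libraries also differ in total, and R sets the ratio of each locus against the median ratio of its day. The members' R had a median of 0.898 on day 4 and ranged from 0.77 to 1.3. On day 7 the median was 0.46 (range 0.172 to 0.6, quartiles 0.388 and 0.527), and on day 14 it was 0.535 (range 0.228 to 0.6, quartiles 0.486 and 0.575). All of these values were used by the rule and are a description. In the plot of R by day, the members lie inside the range of the other loci on day 4 and below their medians on days 7 and 14.

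**Figure D1:**
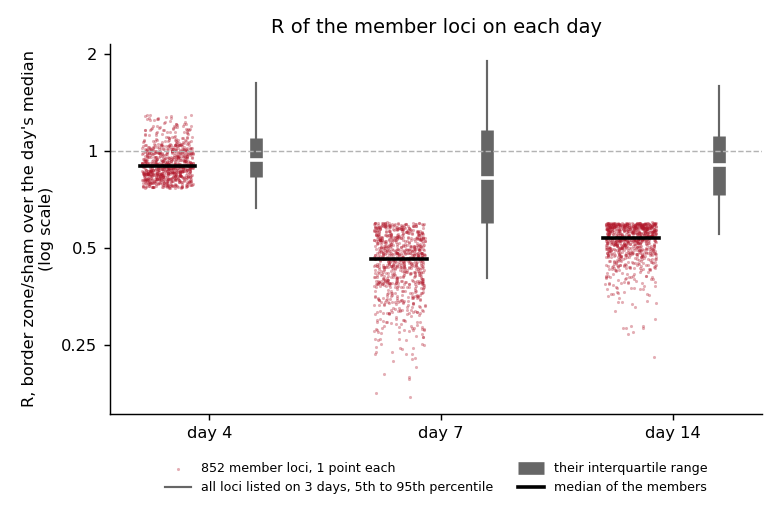
R of the 852 member loci on days 4, 7 and 14 (red points, log axis; black bars are medians) beside the 5th to 95th percentile and the interquartile range of all 19733 loci listed on 3 days (grey; white gap at the median). The members' medians were 0.898, 0.46 and 0.535, and the sharp edges at 0.6, 0.77 and 1.3 are the limits of the rule.

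A typical member was a site of moderate strength. For days 4, 7 and 14 in turn, the medians were 224.5, 90 and 398 sham tags and 191, 37.7 and 209.7 listed border zone tags. Over all loci listed on 3 days the sham medians were 159, 97 and 369, and those of the border zone were 145, 75.4 and 335.9. By these tags, the members thus stood above the typical locus in sham on days 4 and 14, and below it in the border zone on days 7 and 14. The tags are not adjusted for covered width. Per covered kb, the sham median of day 7 was 84 in the members and 80 over all loci listed on 3 days. Both kinds of tags enter the ratio that chose the members, so these values are a description.

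The limits of the rule cut through a continuum. On days 7 and 14 together, 1219 loci had an R of at most 0.6. Of these, 43 were not listed on day 4, 45 had an R of at most 0.6 there, 260 lay between 0.6 and 0.77, 852 lay in the window of the rule and 19 were above 1.3. The loci with a day 4 R between 0.6 and 0.77 had a median R of 0.442 on day 7 and 0.526 on day 14, close to the medians of the members. The 3 loci just inside the limit of day 7 had R values of 0.5995 to 0.5998 on that day, and the 3 just outside had 0.6002 to 0.6014. At the limit of day 14 they had 0.5996 to 0.5999 inside and 0.6003 to 0.6006 outside, and at the lower limit of day 4 they had 0.7701 to 0.7703 inside and 0.7688 to 0.7694 outside. At the upper limit of day 4, the 3 nearest loci inside had 1.294 to 1.296 and the 3 outside had 1.32 to 1.325. In the plot of day 7 against day 14, the members form the lower left corner of a single cloud.

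**Figure D2:**
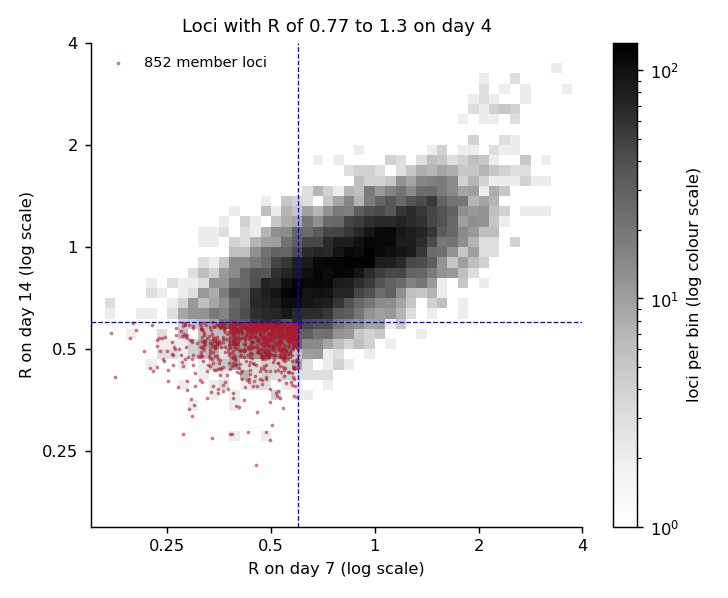
R on day 7 (x axis) against R on day 14 (y axis), both on log scales, for the loci whose R on day 4 lay between 0.77 and 1.3; the grey scale counts loci per bin and red points are the 852 members. The dashed lines mark 0.6, and the members are the corner of a continuous cloud rather than a separate group.

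The rule also sets what the authors' lists say of these loci. All 852 members held a region that the authors listed as sham-higher on day 7, where 33.0% of the loci listed on 3 days did. On day 14, 657 members held such a region, against 8.38% of all loci, and these were sham-higher on both later days, against 6.51%. On day 4, 27 members held a sham-higher region and 5 a border zone-higher one beside regions that did not differ, where 5.1% of all loci held a sham-higher and 6.96% a border zone-higher one. Of all loci listed on 3 days, an R of at most 0.6 was found in 2.74% on day 4, 25.4% on day 7, 8.52% on day 14 and 5.96% on both later days, and 73.9% lay in the window of day 4. Nothing is read from these counts, since the rule used the same ratios.

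Even within the window of day 4, the members leaned towards sham. Their R on day 4 was below 1 in 664 of 852 loci (77.9%), whereas 63.8% of the 14587 loci in that window were below 1. The counting interval of the day 4 value held 1 in 684 members, lay wholly below 1 in 155 and wholly above 1 in 13. How often this held over all loci was not counted, and the members had more tags on day 4. These interval counts therefore do not set the members apart. Between the later days, R was higher on day 14 than on day 7 in 628 members (73.7%), against 59.9% of all loci listed on 3 days. The rule capped R at 0.6 on both days, a limit met by 25.4% of all loci on day 7 and 8.52% on day 14. That order thus follows in part from the choice, and nothing is read from it. The values of day 7 rest on the fewest tags. The upper bound of the counting interval was a median of 2.48 times the lower bound on day 7, 1.49 times on day 4 and 1.47 times on day 14.

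The counting intervals show how precisely single members were placed. Since the rule asks for a higher R on day 4 than on the later days, their separation follows in part from the choice and supports nothing. The interval of day 4 lay above that of day 7 in 560 members, above that of day 14 in 720 and above both in 519, and above both in 8.71% of all loci listed on 3 days. In 91 members it overlapped the intervals of both later days. The day 4 interval lay wholly inside 0.77 to 1.3 in 224 members, and in 26 it reached down to 0.6 or lower. On the later days, the upper bound stayed under 0.77 in 610 members on day 7 and in 847 on day 14. Apart from the share above both later days, these counts were not made over all loci, so they do not set the members apart.

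Many of these loci reached the tag minimum of the later days only through sham. In every listed region the larger of the sham and border zone values was at least 35 (day 4), 50 (day 7) or 150 (day 14). All 852 members had at least 50 sham tags on day 7 and 150 on day 14. Their listed border zone value was below 50 on day 7 in 551 members (64.7%) and below 150 on day 14 in 253 (29.7%). A locus with as few tags in both libraries is in no list, so these members could be seen on the later days only because sham was high. Over all loci listed on 3 days, the median border zone value was 75.4 on day 7 and 335.9 on day 14. How many of those loci lay below 50 or 150 was not counted, so the counts above do not set the members apart.

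The 8 members with the lowest R, ranked by the larger value of days 7 and 14, lay on chromosomes 2, 3, 4, 10, 11 and 12, with 3 of them on chromosome 10. All positions are mm9, counted from 1. Border zone tags are given as listed, scaled by the authors on the later days. The lowest by the listed values was at chromosome 3, 7432251 to 7433750. Its sham and border zone libraries had 214 and 157 tags at day 4, 73 and 18.9 at day 7, and 248 and 70.9 at day 14. R was 0.782 (0.632 to 0.965) at day 4, 0.278 (0.145 to 0.497) at day 7 and 0.282 (0.209 to 0.375) at day 14. The border zone was thus already lower on day 4, by less than on the later days, whose intervals lay below that of day 4. Some listed values carry a rarer, smaller scaling factor of their day, so the ranking partly reflects the scaling. With whole border zone tags, R on day 14 was 0.325 at this locus and 0.366 at chromosome 12, from 59252751. On day 7 it was 0.391 at chromosome 2, from 123234251, and 0.377 at chromosome 10, from 95001251.

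The locus at chromosome 12, 59252751 to 59253750, was balanced on day 4, with 105 sham and 96 border zone tags and an R of 0.974 (0.731 to 1.3). On day 7 it had 64 and 17.5 tags and an R of 0.295 (0.149 to 0.54), and on day 14 it had 264 and 85.0 tags and an R of 0.317 (0.241 to 0.413). At chromosome 10, 124782251 to 124783250, the tags were 187 and 165, then 100 and 26.9, then 328 and 111.1, with R of 0.94 (0.758 to 1.17), 0.29 (0.17 to 0.472) and 0.334 (0.258 to 0.427). Both loci were 1 kb wide and covered the same bases on every day, so the same stretch was compared.

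At chromosome 2, 123234251 to 123235750, the tags were 202 and 167, then 52 and 16.3, then 197 and 54.8, and R was 0.881, 0.338 and 0.274. By the listed values, this was the only one of the 8 with a smaller R on day 14 than on day 7. The intervals of these days, 0.173 to 0.619 and 0.19 to 0.387, overlapped. At chromosome 4, 56012251 to 56015250, the deepest of the 8, the tags were 410 and 349, then 157 and 51.2, then 511 and 192.8, with R of 0.907 (0.784 to 1.05), 0.351 (0.24 to 0.503) and 0.372 (0.307 to 0.448). The remaining 3 were at chromosome 11, 36185251 to 36186250, and at chromosome 10, 24008251 to 24009750 and 95001251 to 95002750. Their R on day 4 was 0.773, 0.813 and 0.807, on day 7 it was 0.299, 0.293 and 0.327, and on day 14 it was 0.343, 0.356 and 0.359. The plot of these 8 loci shows that the intervals of day 4 lie above those of day 14 in every locus and overlap no interval of day 7.

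**Figure D3:**
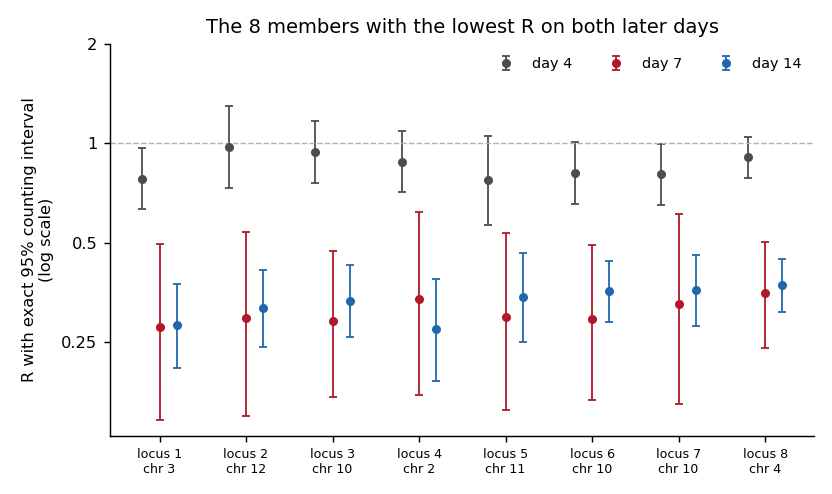
R with its exact 95% counting interval (log axis) on days 4, 7 and 14 for the 8 members with the lowest R, numbered in rank order with their chromosome. Each point is 1 sham against 1 border zone library. Day 4 values lie between 0.773 and 0.974 and those of the later days between 0.274 and 0.372.

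The members with the most sham tags give the most precise values. The strongest was also one of the widest, at chromosome 11, 58819251 to 58827750, where sham and border zone had 1752 and 1279 tags at day 4, 1695 and 782.6 at day 7, and 5634 and 2763 at day 14. Its R was 0.778 on day 4 (0.723 to 0.836), at the lower limit of the rule, and 0.497 (0.452 to 0.547) and 0.483 (0.459 to 0.509) on the later days. At chromosome 10, 52894251 to 52901750, the tags were 1557 and 1258, then 1075 and 490.3, then 2805 and 1677, and R was 0.861 (0.798 to 0.928), 0.491 (0.435 to 0.554) and 0.589 (0.55 to 0.63). In both loci the interval of day 4 overlapped neither of the later ones.

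Loci at chromosome 18, 80526751 to 80530250, and chromosome 6, 6132751 to 6136250, were of like strength. The first had 1105, 785 and 2752 sham tags against 922, 338.1 and 1654 in the border zone, and R of 0.889, 0.464 and 0.592. The second had 1185, 692 and 2757 against 948, 332.7 and 1621, and R of 0.852, 0.518 and 0.579. At chromosome 17, 21187751 to 21191750, with 1136, 466 and 1669 sham tags on the 3 days, R was 0.939 (0.861 to 1.02), 0.386 (0.314 to 0.471) and 0.584 (0.534 to 0.637). Here the value of day 14 lay above the interval of day 7, whereas in the strongest locus, on chromosome 11, the values of both days lay within each other's intervals.

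The other 3 of the 8 members with the most sham tags were unlike the rest, because their sham tags differed strongly between days. At chromosome 10, 84488251 to 84489250, a locus of 1 kb, the 3 sham libraries had 81, 1816 and 4604 tags in day order, and the border zone 81, 930.7 and 2331. At chromosome 1, 134687251 to 134688250, sham had 54, 663 and 2724 tags and the border zone 59, 330 and 1336. At chromosome 10, 95539751 to 95541250, sham had 295, 4675 and 1543 tags and the border zone 267, 2532 and 571.8. Sham and border zone were high on the same days in these loci.

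Relative to the median of the loci listed on 3 days, the sham tags per kb of these 3 loci differed between days by 31.4, 19.5 and 14.8 times. The median member differed by 1.4 times, and the next largest difference was 3.49 times. The aligner and the source of nuclei change between day 4 and the later days, and their part in these differences was not tested. In day order, the sham level of the first locus was 0.723, 22.7 and 15.9 times that of the median locus. For the second it was 0.482, 8.29 and 9.39 times, and for the third, from 95539751, 2.63, 39.0 and 5.32 times. In the order given, R was 1.07, 0.552 and 0.499 in the first locus, 1.16, 0.536 and 0.483 in the second and 0.964, 0.583 and 0.365 in the third. Without these 3 loci the members' median R was 0.898, 0.46 and 0.536.

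The members had about the widths of other loci. The days often covered different parts of a member, which was not counted over all loci and does not set the members apart. Of the 852 members, 263 were 1 kb wide, 370 were 1.5 kb, 116 were 2 kb, 50 were 2.5 kb and 53 were 3 kb or more. These are 30.9, 43.4, 13.6, 5.87 and 6.22% of the members, against 31.6, 36.0, 14.7, 7.71 and 9.91% of all loci listed on 3 days. The median was 1.5 kb in both. The members spanned 1367.5 kb together, of which the regions of day 4 covered 1352 kb, those of day 7 1071.5 kb and those of day 14 1056 kb. The regions of day 4 filled the whole locus in 831 members, those of day 7 in 431 and those of day 14 in 443, and 306 members had the same ends on all 3 days. In those 306, where identical bases were compared, the median R was 0.894, 0.455 and 0.526.

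In 1 of the 2 widest members, both of 8.5 kb, the covered part differed strongly between days. At chromosome 12, 54027251 to 54035750, the region of day 4 covered all 8.5 kb with 991 sham and 983 border zone tags. On day 7 a region of 4000 bp had 276 and 115.8 tags, and on day 14 one of 2000 bp had 213 and 49.4. Its R was 1.06 (0.967 to 1.16), 0.452 (0.351 to 0.578) and 0.228 (0.156 to 0.326), the lowest of all members on day 14. The tags of day 4 thus include those of bases that were not listed on day 14. In the other locus of 8.5 kb, the strongest member on chromosome 11, the regions covered 8500, 7500 and 6000 bp in day order.

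Of the members of 4 kb, a pair lay 5 kb apart on chromosome 14. The one from 29833751 to 29837750 had an R of 0.78 (0.667 to 0.912), 0.365 (0.295 to 0.448) and 0.583 (0.503 to 0.673). The one from 29842751 to 29846750 had 0.823 (0.717 to 0.945), 0.313 (0.259 to 0.375) and 0.587 (0.523 to 0.658). The values of the pair lay within each other's intervals on all 3 days. The other loci of 4 kb outside chromosome 13 lay at chromosome 9, 36768251 to 36772250, at chromosome 14, 61771751 to 61775750, at chromosome 18, 58870751 to 58874750, and at the locus of chromosome 17 given above. The first of these had R of 1.02, 0.532 and 0.36 in day order, the next 1.03, 0.508 and 0.545, and the one on chromosome 18 1.08, 0.482 and 0.524.

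The members were scattered over the genome, with 1 dense group. They fell into 799 windows of 100 kb, of which 752 held 1 member, 45 held 2, 1 held 3 and 1 held 7. Another member lay within 50 kb of 113 members (13.3%). Of all 19733 loci listed on 3 days, 79.6% had another such locus within 50 kb. In the groups defined below, the share was 24.9% for the 1195 loci reduced on day 7 only and 44.7% for the 4387 stable loci. For the 45 loci reduced on all 3 days it was 4.44%. These shares depend on how many loci a set holds, so nothing is read from them. The window with 7 was 12000001 to 12100000 of chromosome 13, where 15 loci were listed on all 3 days. Across these 15, R had medians of 1.18, 0.44 and 0.541 in day order. On day 4, 10 of the 15 were above 1, on day 7 13 were at most 0.6, and on day 14 11 were. Of the 8 that were not members, 4 missed the rule only on day 14, 2 only by a day 4 value above 1.3, 1 only on day 7 and 1 on more than 1 day. An R of at most 0.6 on both later days was found in 9 of the 15, of which 2 were not members. The window was picked for its number of members, so the values of its members follow from the choice.

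The pattern continued beside this window and changed by day. In the window from 12100001 to 12200000, 15 loci listed on 3 days had a median R of 1.11 on day 4, 0.484 on day 7 and 0.72 on day 14. On day 7, 13 of them were at most 0.6, and on day 14 0 were, with a range of 0.649 to 0.906, so that none became a member. On the other side, from 11900001 to 12000000, 4 loci were listed on 3 days, of which 1 was a member, and their medians were 1.38, 0.501 and 0.599. From 12200001 to 12300000, 6 loci had medians of 0.902, 0.531 and 0.656. In the plot of this stretch, most loci lie below 0.6 on day 7 inside the shaded window and to its right, whereas on day 14 those to its right lie above 0.6.

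**Figure D4:**
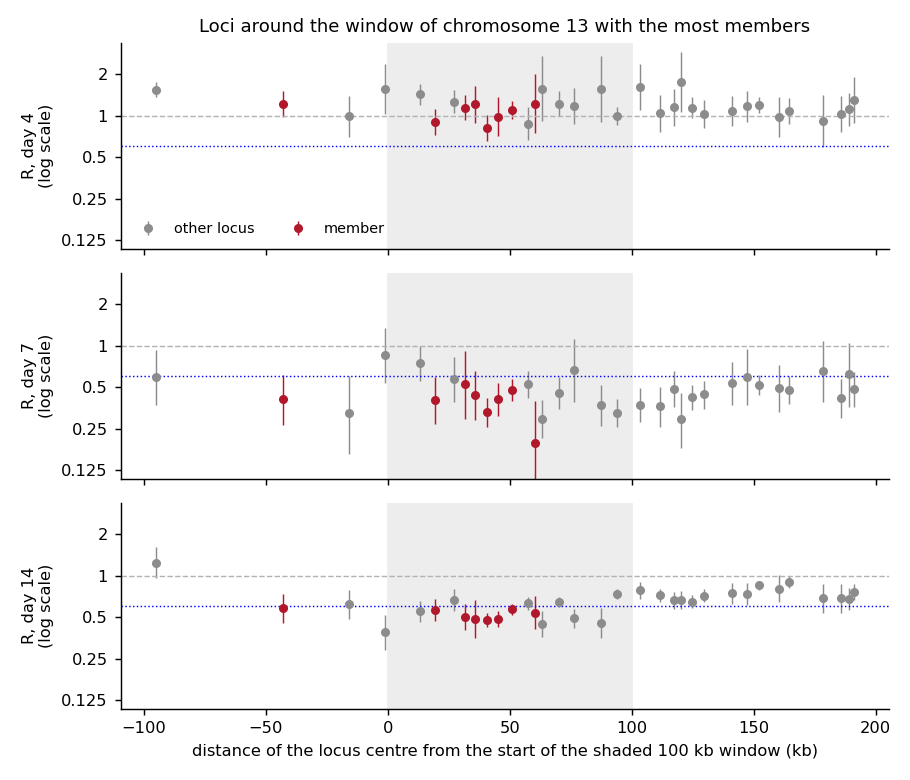
R (log axes, with exact 95% counting intervals) of the loci listed on 3 days around the 100 kb window of chromosome 13 that held 7 members, against the distance of their centres from the window's start in kb; the window is shaded, members are red, and the dotted line marks 0.6. In day order, median R was 1.18, 0.44 and 0.541 in the shaded window and 1.11, 0.484 and 0.72 in the 100 kb to its right.

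Within the dense window, the widest member, 12047751 to 12054250, had 349, 444 and 1527 sham tags in day order against 358.5, 197.7 and 881.6 in the border zone. Its R was 1.09 (0.941 to 1.27), 0.48 (0.396 to 0.578) and 0.569 (0.518 to 0.624). Its neighbour from 12038751 to 12042750 had 209, 365 and 1038 sham tags against 159.7, 111.8 and 503.1, with R of 0.814 (0.658 to 1.01), 0.33 (0.257 to 0.42) and 0.478 (0.423 to 0.538). Between them, 12043251 to 12047250 had 80, 243 and 849 sham tags against 74, 92.1 and 415.5, with R of 0.985, 0.408 and 0.482. On day 4 the interval of each of these 3 adjoining loci held 1, and on both later days each lay wholly below 0.77.

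The other 4 members of the window started at 12017751, 12030251, 12034751 and 12059751. In this order their R was 0.907, 1.15, 1.21 and 1.23 at day 4, 0.405, 0.53, 0.44 and 0.195 at day 7, and 0.564, 0.503, 0.486 and 0.541 at day 14. The last of them rested on few tags, with 33 and 38 on day 4 and 58 and 10.5 on day 7, and its day 4 interval ran from 0.749 to 2.02. In sham, all 7 members had fewer tags per kb than the median locus on day 4, at 0.295 to 0.692 of that median, whereas on day 7 they stood at 0.65 to 1.3 and on day 14 at 0.528 to 1.19. This was not particular to the members. The 8 other loci of the window stood at 0.214 to 0.864 on day 4, 0.625 to 1.5 on day 7 and 0.603 to 1.27 on day 14.

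Loci beside members that were not members themselves also had lower R on the later days than loci at large. Within 10 kb of a member lay 345 other loci listed on 3 days, which the rule did not select. In day order their median R was 0.922, 0.667 and 0.793. The 8675 non-member loci within 10 kb of any locus listed on 3 days had medians of 0.947, 0.816 and 0.93. On day 7, 140 of the 345 (40.6%) had an R of at most 0.6, against 23.3%, and on day 14 29 (8.41%) did, against 3%. Within 50 kb the medians were 0.937, 0.7 and 0.834 for 1305 loci, and 0.947, 0.84 and 0.928 for 15126. Non-member loci within 10 kb of a stable locus (R of 0.77 to 1.3 on all 3 days) had medians of 0.947, 0.88 and 0.97, and 17.6% and 2.05% of these 2686 had an R of at most 0.6 on days 7 and 14. A member could not have a neighbour at 0.6 or less on both later days with a day 4 R inside the window, since that locus would be a member, so these shares leave such loci out. Neighbouring loci share a library and can share a gene, and no test was made.

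The low ratio of the later days lay mainly in the border zone libraries. Tags per covered kb were divided by the median of the loci listed on 3 days in the same library. In sham, the members had a median relative level of 1.34 on day 4, 1.05 on day 7 and 1.17 on day 14. In the border zone the medians were 1.27, 0.536 and 0.666. From day 4 to day 7 the relative level changed by a median of -0.30 on the log2 scale in sham and -1.15 in the border zone, and from day 4 to day 14 by -0.18 and -0.88. Over all loci listed on 3 days these medians were 0.08 and 0.03, and 0.04 and 0.02. The sham level was higher on day 7 than on day 4 in 195 members (22.9%), against 54.7% of all loci, and on day 14 in 299 (35.1%), against 53.1%. These levels enter the ratio that chose the members, so they are a description, and their step from day 4 goes with the change in the source of nuclei.

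Days 7 and 14 used the same mouse line and the same sort, so this change does not enter between them. From day 7 to day 14 the members' relative level changed by a median of 0.13 on the log2 scale in sham and 0.27 in the border zone. It was higher on day 14 in 576 members (67.6%) in sham and in 612 (71.8%) in the border zone, against 46.9 and 48.1% of all loci. The levels of both days enter the ratios that chose the members, so these shares are a description too. The loci that were reduced on day 7 only, defined by an R of at most 0.6 on day 7 and between 0.77 and 1.3 on both other days, numbered 1195. Their border zone level changed by a median of 0.62 on the log2 scale from day 7 to day 14 and was higher in 96.0% of them, while in sham it changed by -0.09. Their definition asks for a low ratio on day 7 and a balanced one on day 14, so a higher border zone level relative to sham on day 14 is built into it. These loci had a sham level of 1.1 on day 4, below the 1.34 of the members, and of 1.02 and 0.975 on the later days.

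**Figure D5:**
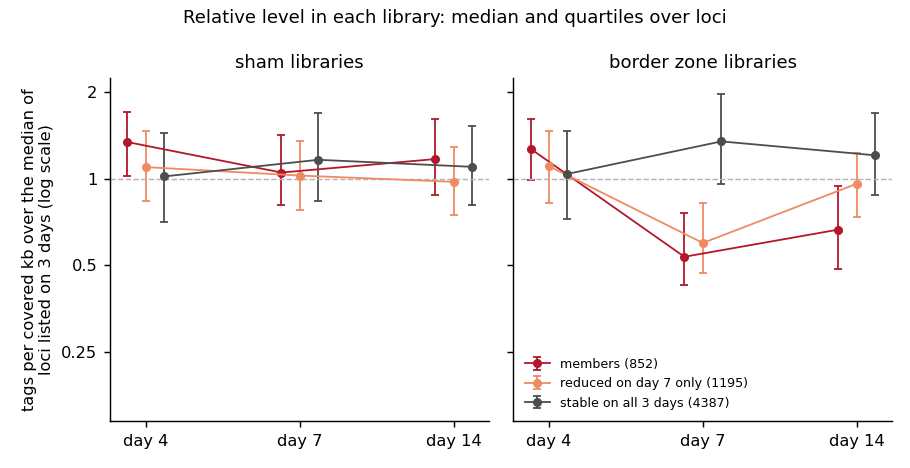
Tags per covered kb over the median of the loci listed on 3 days (log axis), in the sham and the border zone libraries of days 4, 7 and 14, for the members, the loci reduced on day 7 only and the loci stable on all 3 days. Points are medians over loci and bars their quartiles, from 1 library each. The members' border zone level was 1.27, 0.536 and 0.666, and their sham level 1.34, 1.05 and 1.17.

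Against the 2 other groups nearest in pattern, the members differed as follows, without a test. The 45 loci reduced on all 3 days had a median width of 1 kb and sham levels of 1.07, 0.8 and 0.9 on the 3 days, all below those of the members. The 4387 loci that were stable, with an R of 0.77 to 1.3 on every day, had a median width of 1.5 kb, and 13.1% of them were 3 kb or wider. Their sham level was 1.02, 1.16 and 1.1, so on day 4 they stood below the members, on day 7 above them and on day 14 below them. In the border zone they stood at 1.04, 1.35 and 1.2.

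How many loci followed the rule depended strongly on the point taken as balanced. The loci listed on all 3 days had a median R of 0.941, 0.824 and 0.904 in day order, below the 1 that marks the median of all loci of a day. When R was divided by the median of those 19733 loci, 349 loci met the rule, and 305 of the 852 members (35.8%) were among them. Of the members named above, all 8 of the lowest R were still within the rule, whereas 0 of the 8 with the most sham tags were. The former had been ranked by low R, so their staying was fixed by that choice, and nothing is read from the contrast. The dense window of chromosome 13 kept 3 of its 7 members. The strongest locus, on chromosome 11, missed by a day 7 R of 0.603, and the one on chromosome 17 by a day 14 R of 0.646. Which centre is the right one cannot be read from these lists.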

How the data were processed

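ATAC-seq libraries of 1 sham and 1 border zone sample per day were compared on days 4, 7 and 14. The 30 RNA-seq samples were not analysed here. The series text names days 3, 7 and 14, whereas the labels of these libraries say day 4. The submitters' processing notes name the build mm9, bedtools, and as aligner Bowtie2 for day 4 and BWA for the later days. No source used here gives the region caller, its thresholds or the handling of duplicates. Per the labels, day 4 reads were paired and 76 bp long. Sham tags are deposited counts per region, per the file headers. Border zone tags are a deposited signal that the authors scaled to sham, except in the day 4 list of regions that did not differ, which holds counts.

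Of 85106 scaled values, 97.6% were exact multiples, within a relative tolerance of 0.001%, of a factor seen for that day (mainly 1.03 for day 4, 1.35 for day 7 and 1.37 for day 14). The factors were read from the values. A further 2002 were sums of 2 such terms and 1 was approximate. Whole tags recovered in this way gave the counting intervals, and R used the listed values. Where a value fits 2 factors, the main factor was taken, so a few whole tags can be off by the ratio of the factors. Lists were tied to samples through column names and labels, with 0 columns left unmapped.

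Loci, R and members followed the rule given above, computed with Python 3.11.15, numpy 2.4.6, pandas 2.3.3 and scipy 1.17.1, and tested on simulated tags. No significance test was run. Loci are named by rule: the 8 lowest by the larger R of days 7 and 14, the 8 with the most sham tags, the 5 widest with ties, every 100 kb window with at least 4 members, and the 3 loci on either side of each limit. Other loci reported were chosen after their values were seen. Gene names were not assigned and no sequence is shown, because no mm9 genome or annotation was used here. The members and all choices were made with earlier results of these data known. Alternatives were other scaling, centring, joining, minimum tags and limits, and, added after the data were seen, 3 others.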

Additional observations from a re-analysis of the deposited data

How the results depend on the processing

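No paired analysis was possible because the ATAC-seq libraries carry no replicate numbers and no test was run. With whole border zone tags in place of the scaled values, 866 loci met the rule and held 831 of the 852 members. With regions joined only at 500 bp of overlap or more, the same 852 came out. The ends of the loci named here lie on a grid of 500 bp, where regions that overlap share at least 500 bp. That setting could therefore not change the result, and nothing is read from it. Without the 3 loci of discordant sham tags 849 were left. Across these 3 settings, 12 quantities were compared (the number of loci, median R, width and sham tags per kb, and shares). All stayed within 1.5 times of the main number of loci or within the interval of the main median or share over loci. For the joining this was fixed in advance.

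Centring on the loci listed on all 3 days gave 349 loci, with a median R of 0.922, 0.478 and 0.543 on days 4, 7 and 14. All of them, 100%, held a sham-higher region on both later days, and 4.87% had another within 50 kb. With at least 100 sham tags on each day, 365 members were left. Their R was 0.889 on day 4 and 0.55 on day 14, 80.8% were sham-higher on day 14 and on both days, 9.59% had a neighbour, and sham tags per kb were 190, 118.8 and 481. Stricter limits (0.5, and 0.9 to 1.1) left 78 loci with R of 0.98, 0.387 and 0.456, 100% sham-higher on day 14 and on both days, 2.56% with a neighbour, and 144.2, 78.2 and 321.2 sham tags per kb. Wider limits (0.67, and 0.67 to 1.5) gave 2274 loci with R of 0.879, 0.489 and 0.593. Of these, 91.6% were sham-higher on day 7, 48.2% on day 14 and 45.2% on both, and 26.8% had a neighbour.

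Without the day 4 lists, 1284 loci had an R of at most 0.6 on both later days. They had a median R of 0.53 on day 14, a width of 1 kb, 18.2% with a neighbour and 324 sham tags per kb on day 14. The 306 members with the same ends on all days had an R of 0.526 on day 14, a width of 1 kb, 72.5% sham-higher on day 14 and on both days, 3.27% with a neighbour, and 130, 72 and 285 sham tags per kb. Over all members these values were 77.1%, 13.3%, and 150, 84 and 339 tags. In the members named, for which scaling and centring were tried, R stayed below 1 on days 7 and 14. The rule had set it at 0.6 or less, and these settings shift R by too little to reach 1. That outcome was thus fixed in advance and supports nothing. The main limits are the single library per condition and day, the fewer tags of day 7, and the change of mouse line, nuclei and aligner after day 4.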

Other observations

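The share of loci that were members differed between chromosomes. Of the loci listed on 3 days, 7.32% were members on chromosome X (15 of 205, exact interval 4.15 to 11.8%), 6.14% on chromosome 13 (56 of 912, 4.67 to 7.9%) and 5.8% on chromosome 10 (61 of 1052, 4.46 to 7.39%). Leaving out chromosome Y, where 1 locus was listed on 3 days and 0 were members, the lowest shares were 2.64% on chromosome 19 (16 of 606, 1.52 to 4.25%) and 3.05% on chromosome 8 (37 of 1214, 2.15 to 4.18%). Over all chromosomes the share was 4.32%. On chromosome 13, 7 of the 56 members came from the single window described above. Neighbouring loci are not independent, so these intervals are too narrow, and no test was made.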
